A study of Mus musculus with 71 samples.

Results

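Chromatin loops at the promoters of 10 ephrin and Eph genes were described in mouse synovial sarcoma (SyS), a soft tissue cancer driven by the SS18::SSX fusion. The genes were the ligands Efna1, Efna3, Efna4, Efnb2 and Efnb3 and the receptors Epha2, Epha4, Ephb2, Ephb3 and Ephb4. A loop belonged to a gene when an anchor reached within 2 kb of the start (TSS) of any of its GENCODE vM21 transcripts. This gave 79 loops of the 24244 in the merged list and 184 of its 41574 tags, for 10 of the 55450 annotated genes. The set was chosen by its summed tag counts in these data, since it was picked because Efna3 had one of the largest outside the Hox clusters. The tag counts are therefore a description, and no test was made on them.

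The loops came from H3K27ac HiChIP of 2 hSS2 tumors, in which chromatin contacts are captured and those that carry acetylated lysine 27 of histone H3 are enriched. In hSS2 mice the human SS18::SSX2 cDNA is expressed from Rosa26 after Cre removes a floxed stop. Tumors were initiated by injection of TATCre protein into the hindlimb in the second week of life, in mice of mixed CB57Bl/6-svJ background, so the fusion was switched on in whichever cells took up the protein. Both tumors belonged to the same group, no other allele is given for them, and no untreated tissue was in the loop list.

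Ephrins and Eph receptors signal between cells that touch. Ephrin-A ligands are held to the membrane by a lipid anchor and ephrin-B ligands span it, while the Eph receptors are receptor tyrosine kinases, and signals pass into both the cell with the receptor and the cell with the ligand. The system is known for guiding axons, for keeping cell populations apart at tissue boundaries and, through ephrin-B2 on arteries and EphB4 on veins, for patterning blood vessels.

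A tag is a read pair that joins the anchors of a loop, and a tag count has an exact Poisson 95% interval here, while shares have Wilson 95% intervals. Both cover counting error only. The list merges both tumors and runs through the genome in order, then starts again. Nothing names the tumor behind either of these 2 parts, and they are not taken as tumors here. The first part held 13683 loops and the second 10561, and 68.9% of all tags were in the first. There was thus no spread between replicates, and the parts are given side by side where they differ. Most loops were thin, since 78.0% of all loops and 57 of the 79 described here (72.2%, 61.4 to 80.8%) rested on a single tag. In dissociated tumor tissue, fewer cells of a type and less signal per cell cannot be told apart.

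The sequences below, from the GRCm38 assembly of RefSeq (the assembly that mm10 denotes), show the promoters around which most of these tags lay. Each gives the 200 bases before the outermost annotated TSS in the direction of transcription, free of annotated exons, with every CG in capitals. They are shown because the first pair of promoters is joined by the loop with the most tags, the next is joined to Efna3, and the last is the receptor with the most tags.
Efna3 promoter (chr3:89322966-89323165, minus strand): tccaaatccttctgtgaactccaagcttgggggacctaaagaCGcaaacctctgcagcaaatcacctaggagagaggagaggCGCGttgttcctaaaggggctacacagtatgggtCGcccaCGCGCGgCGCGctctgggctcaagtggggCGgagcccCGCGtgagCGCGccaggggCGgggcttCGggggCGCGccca
Efna4 promoter (chr3:89338029-89338228, minus strand): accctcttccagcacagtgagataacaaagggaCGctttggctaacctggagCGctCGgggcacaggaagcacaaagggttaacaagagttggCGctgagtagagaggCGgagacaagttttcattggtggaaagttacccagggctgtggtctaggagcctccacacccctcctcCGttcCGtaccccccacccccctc
Efna1 promoter (chr3:89281143-89281342, minus strand): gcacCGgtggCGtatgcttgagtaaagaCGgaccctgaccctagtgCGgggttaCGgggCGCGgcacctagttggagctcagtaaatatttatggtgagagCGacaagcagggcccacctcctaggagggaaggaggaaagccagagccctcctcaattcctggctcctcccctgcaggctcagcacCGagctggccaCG
Ephb4 promoter (chr5:137349909-137350108, plus strand): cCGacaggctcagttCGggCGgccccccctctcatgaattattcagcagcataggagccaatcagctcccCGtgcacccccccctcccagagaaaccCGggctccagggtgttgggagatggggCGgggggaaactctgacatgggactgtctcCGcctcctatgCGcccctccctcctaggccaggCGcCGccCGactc
The Efna3 stretch held 18 CG dinucleotides, against 7 for Efna4, 10 for Efna1 and 11 for Ephb4. None of them held GATC, the site cut by MboI, the enzyme that fragments the chromatin and so sets where a contact can be ligated. Over the 500 bases on each side of the TSS, the ratio of observed to expected CG was at least 0.6 in 9 of the 10 genes, and 0.571 in Efnb3. The same ratio was reached by 46.0% of protein-coding promoters. It was higher for Efnb2 (0.957) than for Efna3 (0.629), although Efnb2 had far fewer tags.

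Loops reached 9 of the 10 promoters, where 45.8% of all protein-coding genes had at least 1 loop. A loop with an FDR under 0.001 was found for 5 of them (Efna1, Efna3, Efna4, Efnb2 and Ephb4), where 11.2% of protein-coding genes had such a loop. The genes were chosen with these values known, so nothing is read from either share. The tags were uneven among the 10 genes. The A-type ligands Efna3, Efna4 and Efna1 and the receptor Ephb4 held 159 of the 184 tags, counting each loop once. The other looped genes had 25 tags together, and Efnb3 had none. Among looped protein-coding genes the median was 4 tags and the upper quartile 9.

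**Figure D1:**
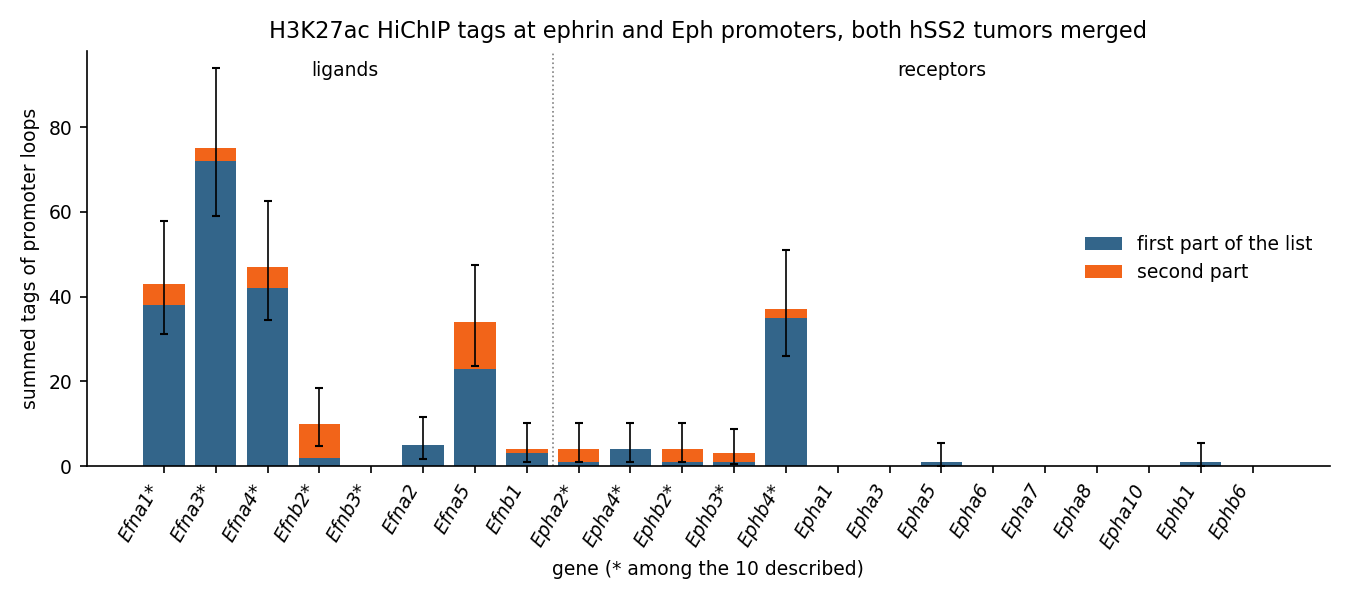
Summed H3K27ac HiChIP tags of the promoter loops of each of the 22 ephrin and Eph genes, stacked by the part of the list, with exact Poisson 95% intervals of the total for looped genes; asterisks mark the 10 genes described. Efna3 (75 tags), Efna4 (47) and Efna1 (43) stand highest, and Ephb4 (37) is the only receptor above 4 tags.

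Efna3, which encodes ephrin-A3, had the most tags of the family. Its promoter (gene at chr3:89313899-89322965, minus strand, ENSMUSG00000028039.11) held 17 loops with 75 tags (59.0 to 94.0). It ranked 64 among protein-coding genes by summed tags. Of these tags 72 lay in the first part of the list and 3 in the second. One loop gave 46.7% of them. It ran 16.6 kb upstream to the anchor that covers the start of Efna4, the start of the antisense RNA 4731419I09Rik and a start of Adam15. This loop had 35 tags and a listed FDR of 0, all in the first part. Among the 300 loops of the list that span 10 to 20 kb, the median was 9 tags and 6 had at least 35. In the list as a whole 19 loops had at least 35 tags. No loop between the same promoters was listed in the second part. Of the 28 first-part loops with at least 30 tags, 16 (57.1%, 39.1 to 73.5%) had a counterpart in the second part.

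The next loops of Efna3 also led to promoters. It was joined by 10 tags over 72.0 kb to the start of Zbtb7b, a transcription factor best known for CD4 T cell fate, and by 8 tags over 41.4 kb to Efna1. Then came 4 tags to Clk2, a kinase of splicing factors, at 156 kb. This contact was seen once more in the second part, with 1 tag, and was the only one of any of the 10 genes listed in both parts. The loops to Ubap2l (731 kb) and Atp8b2 (641 kb) had 3 tags each and the loop to Ash1l and Dap3 (371 kb) had 2. The remaining 9 loops not named so far had a single tag each, including 1 to Lmna, the lamin A gene, in each part, at different anchors.

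Efna4, which encodes ephrin-A4, starts 15.1 kb from Efna3 on the same strand (chr3:89333390-89338028, minus strand, ENSMUSG00000028040.7). It had 10 loops with 47 tags (34.5 to 62.5), 42 of them in the first part and 5 in the second. The loop to Efna3 made up 74.5% of these tags. The next had 4 tags, all in the second part, and ran 11.1 kb to an anchor at other starts of Adam15, a membrane metalloprotease. The other 8 loops were single tags to promoters 120 kb to 1408 kb away. Since the Efna4 anchor also covers starts of its neighbors, its loops could not be separated from theirs: all 10 were shared with 4731419I09Rik, and 10 of the 15 loops found at either gene were shared with Adam15. The tags counted for Efna4 are thus as much the tags of Adam15.

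Efna1, which encodes ephrin-A1, a ligand induced by tumor necrosis factor in endothelium, starts 41.8 kb from Efna3 (chr3:89271733-89281142, minus strand, ENSMUSG00000027954.9). It had the most loops of the family, 20, with 43 tags (31.1 to 57.9), of which 38 were in the first part and 5 in the second. Its tags were spread more evenly than those of Efna4, as the top loop held 20.9% of them. That loop had 9 tags and ran 13.2 kb to Dpm3, a subunit of the enzyme that makes dolichol phosphate mannose. The loop to Efna3 had 8 tags with an FDR of 0.0262. Some longer loops with fewer tags had lower FDRs. There were 4 tags to Fdps, an enzyme of the mevalonate pathway, at 179 kb (FDR 0.000825), and 3 tags to Lamtor2 and Ubqln4 at 726 kb (FDR 7.62e-06). Dennd4b, Atp8b2 and Arhgef2 had 2 tags each, at 659 kb to 986 kb.

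Together these neighboring ligands held 45 loops and 122 tags (101 to 146), which is 66.3% of the tags described here. The loops from Efna3 to Efna4 and from Efna3 to Efna1 held 43 of these tags. No loop between Efna1 and Efna4 was listed. Their starts lie 56.9 kb apart, and every listed loop of 50 to 65 kb had at least 7 tags in the first part and at least 3 in the second, so a contact with fewer tags would not appear. The 3 promoters shared some far partners, counted as anchors with identical ends. Efna1 and Efna3 reached 5 of the same anchors (25% of those of Efna1 and 29.4% of those of Efna3), at Cct3 and Tsacc, Lamtor2 and Ubqln4, Arhgef2, Atp8b2 and Ubap2l. Efna3 and Efna4 reached 3 of the same anchors, and Efna1 and Efna4 reached 4, 1 of which was the Efna3 promoter itself. Counting overlapping anchors, a setting chosen after seeing the data, Efna1 and Efna3 shared 7 (35% and 41.2%), with Fdps and Zbtb7b added. Efna1 and Efna4 then shared 5, with Ube2q1 added, and Efna3 and Efna4 still shared 3. The Lamtor2 and Ubqln4 anchor was the 1 anchor reached by all of them, with 3 tags from Efna1, 1 from Efna3 and 1 from Efna4.

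**Figure D2:**
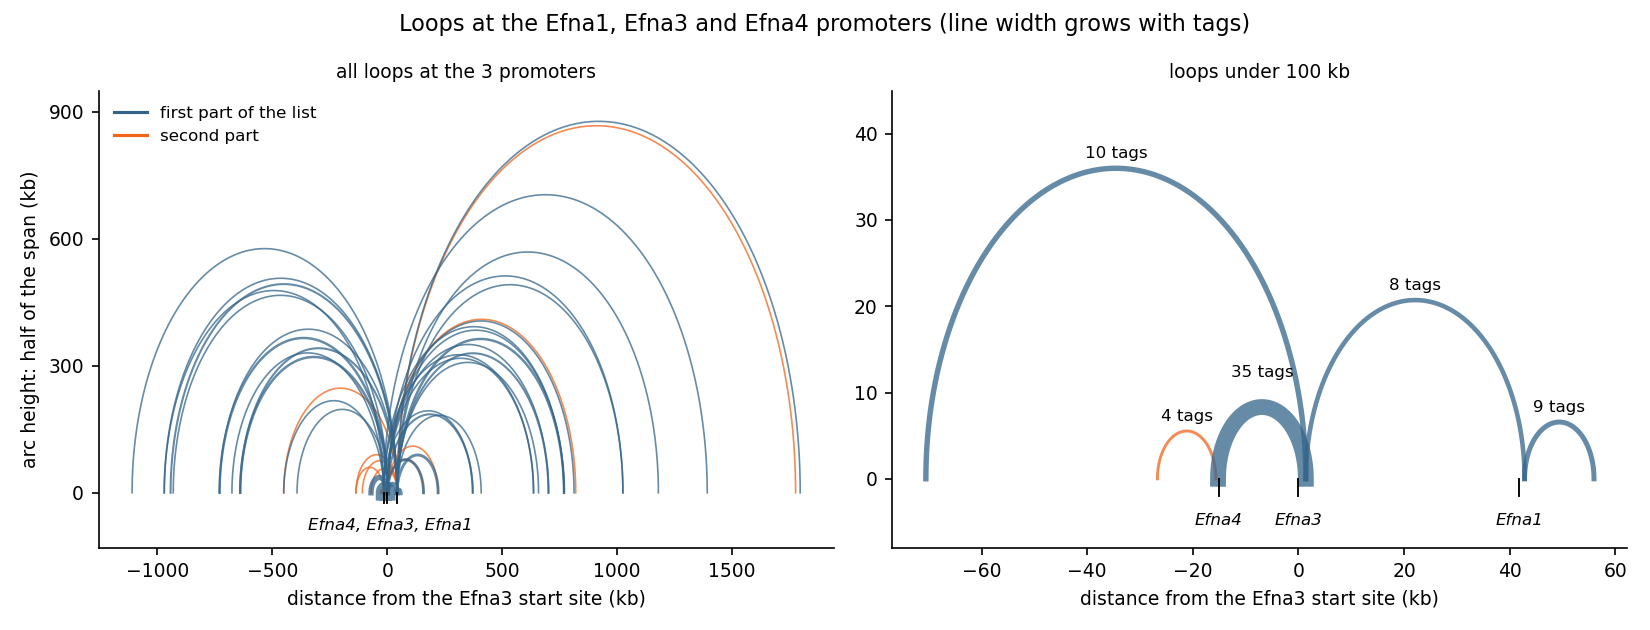
Loops at the Efna1, Efna3 and Efna4 promoters as arcs over the distance from the Efna3 TSS in kb, positive in the direction of transcription, for all loops (left) and those under 100 kb (right); line width grows with tags and color gives the part of the list. The Efna3 to Efna4 loop of 35 tags is the widest arc, and 1 of the 5 loops under 100 kb, with 4 tags, is in the second part.

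Efnb2, which encodes ephrin-B2, had another kind of partner. Its promoter (gene at chr8:8617434-8661242, minus strand, ENSMUSG00000001300.16) held 6 loops with 10 tags (4.80 to 18.4), and 8 of these tags lay in the second part. None of its 6 distal anchors was near a TSS, and the nearest TSS lay 10.7 to 102 kb away. The anchor with the most tags was at chr8:8993962-8995926, between genes, 334 kb from the Efnb2 promoter and 61.3 kb from any TSS. It had 3 tags with an FDR of 5.30e-06. A pair of anchors with 2 tags each lay in introns of the gene model Gm31135, at 429 kb (chr8:8230726-8233088, FDR 0.000450) and 375 kb (chr8:8284698-8287408, FDR 0.00361). Both are downstream of Efnb2, one in each part of the list. Of the single tags, 1 lay in an intron of Fam155a at 586 kb and the others between genes at 400.1 and 161 kb. The start of the long noncoding RNA 4921522P10Rik lies at the same promoter, and all 6 loops were shared with it. Only 1 other protein-coding gene starts within 500 kb of Efnb2, against 37 around each of Efna1, Efna3 and Efna4.

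Efnb3, which encodes ephrin-B3 (chr11:69554092-69560205, minus strand, ENSMUSG00000003934.5), had no listed loop. Short contacts are listed only above a minimum of tags, so this sets no upper limit on its contacts. It sits in the most gene-dense place of the 10, with 64 protein-coding genes within 500 kb. The nearest anchor of the list lay 12.1 kb away and carried 3 loops. The window of 2 kb on each side of its TSS held 3 MboI sites, against a median of 9 over protein-coding genes. Of the 407 protein-coding genes with at most 3 sites 35.4% (30.9 to 40.1%) were looped, and of those with more sites 46.0% (45.3 to 46.7%). The part of these sites in the missing loop was not tested.

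Ephb4 was the receptor with the most tags, and it resembled Efna1, Efna3 and Efna4 in having short loops to near promoters. EphB4 is the receptor of ephrin-B2 on veins. Its gene (chr5:137350109-137378669, plus strand, ENSMUSG00000029710.15) had 14 loops with 37 tags (26.1 to 51.0), 35 in the first part and 2 in the second. The top loop had 13 tags and ran 16.1 kb upstream to Slc12a9, a member of a family of chloride cotransporters (FDR 0.00116). Next came 8 tags over 36.3 kb to Trip6, a LIM domain protein of focal adhesions (FDR 0.0278). Both were in the first part. Of the 300 loops of 10 to 20 kb in the list, 81 had at least 13 tags. Farther out, Tsc22d4 (397 kb, FDR 6.76e-05) and Trim56 (234 kb, FDR 0.000738) had 3 tags each, and 10 loops had a single tag, 1 of them to Pdgfa, a growth factor gene, at 1646 kb.

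The other receptors had 3 or 4 tags each, with intervals that reach from about 1 to about 10 tags, and could not be ordered among themselves. Epha4, a receptor for both ephrin classes (chr1:77367185-77515088, minus strand, ENSMUSG00000026235.14), had 4 tags in 3 loops (1.09 to 10.2), all in the first part. One of them was the only loop of these receptors with more than 1 tag. It led with 2 tags (FDR 0.00232) to chr1:77102089-77103774, between genes, 412 kb downstream and 41.0 kb from any TSS. A second anchor, at 702 kb, was also away from any TSS, and the third, at 1968 kb, covered the start of Slc4a3. No other protein-coding gene starts within 500 kb of Epha4, and all 3 loops were shared with the long noncoding RNA Gm28386, which starts at the same promoter. For the remaining looped genes no other gene starts at a shared promoter anchor.

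Epha2, a main receptor of ephrin-A1 in epithelia (chr4:141301240-141329384, plus strand, ENSMUSG00000006445.3), had 4 single-tag loops, to Atp13a2, Mfap2, Fblim1, and Casp9 with Dnajc16. Of these tags 2 reached starts inside the gene, and 2 remained when the promoter window was narrowed to 1 kb. Ephb2 (chr4:136647539-136835988, minus strand, ENSMUSG00000028664.14), a receptor known from the intestinal crypt, had 4 single tags, to Zfp46, to Usp48 and to 2 anchors away from any TSS. Ephb3 (chr16:21204755-21223305, plus strand, ENSMUSG00000005958.15), which acts beside Ephb2 in the crypt, had 3 single tags. The Ephb3 tags led to Psmd2, to Senp2, and to Alg3 with Eef1akmt4. The last 2 of them started from an anchor at the far end of the gene, near the start of a short GENCODE transcript, and only the Psmd2 tag was left with RefSeq transcripts. For these 3 receptors no loop remained at an FDR under 0.01.

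The looped genes differed in what lay at their distal anchors. Over the 9 looped genes, 58 of 70 distinct distal anchors (82.9%, 72.4 to 89.9%) were near the TSS of another gene, and for protein-coding genes in general 79.1% were. Anchors counted as distinct when their ends differed, so a site listed with different ends, as at Clk2, was counted more than once. The intervals do not allow for this. For Efna1, Efna3, Efna4 and Ephb4 the share was 48 of 50 (96.0%, 86.5 to 98.9%), and for the other 5 it was 10 of 20 (50%, 29.9 to 70.1%). This grouping was made after the values were seen, and it did not hold gene by gene. All 4 anchors of Epha2 and all 3 of Ephb3 were near a TSS, while Efnb2 (0 of 6), Epha4 (1 of 3) and Ephb2 (2 of 4) made up the lower share. The anchors away from a TSS lay mostly between genes. Of these 12 anchors, 9 were intergenic, 3 intronic and none exonic. Their median GC content was 47.5%, against 54.0% for the 58 near a TSS, and in the whole list it was 46.9% and 52.5%.

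**Figure D3:**
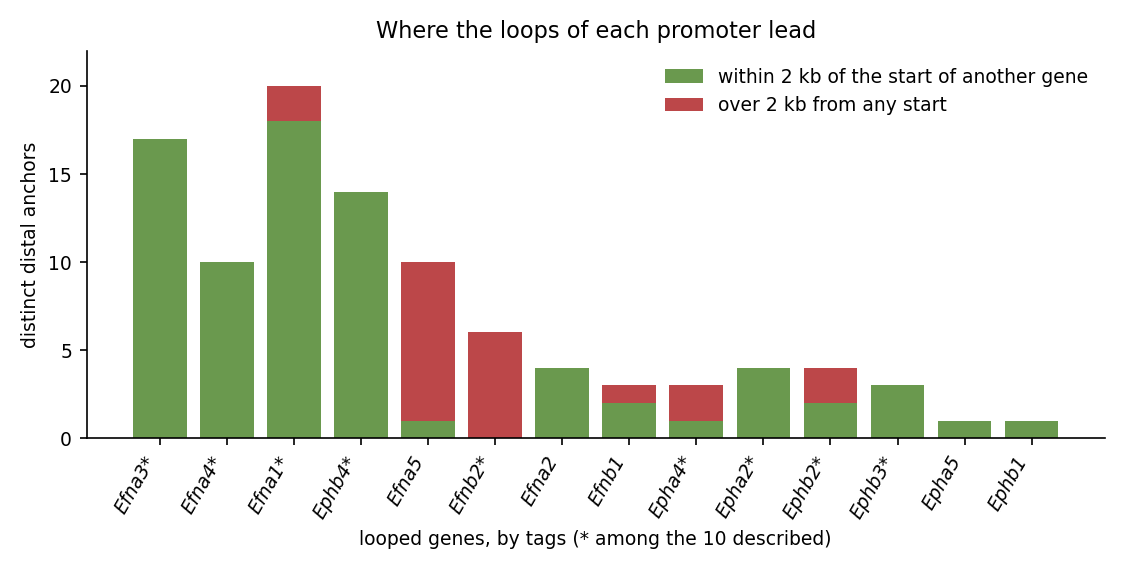
Number of distinct distal anchors of each looped ephrin and Eph promoter, split into anchors within 2 kb of the start of another gene and anchors over 2 kb from any start, in the order of tags. All 6 anchors of Efnb2 are away from a start, while all 17 of Efna3 and all 14 of Ephb4 are near one.

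For Efnb2 and Epha4, the anchor with the most tags is shown by the 200 bases around its most central MboI site, on the plus strand of GRCm38, with the site in capitals. They are printed because these loops lead away from any promoter.
Efnb2 distal anchor (chr8:8994923-8995122, plus strand): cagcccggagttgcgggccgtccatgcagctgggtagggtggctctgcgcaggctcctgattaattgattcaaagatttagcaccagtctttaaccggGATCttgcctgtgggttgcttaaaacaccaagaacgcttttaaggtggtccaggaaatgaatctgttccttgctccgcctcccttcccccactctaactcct
Epha4 distal anchor (chr1:77102818-77103017, plus strand): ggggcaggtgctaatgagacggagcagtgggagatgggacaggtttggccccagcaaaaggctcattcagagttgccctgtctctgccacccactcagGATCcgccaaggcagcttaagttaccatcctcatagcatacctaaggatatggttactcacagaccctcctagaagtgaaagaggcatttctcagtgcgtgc
The Efnb2 anchor held 1 MboI site and the Epha4 anchor 5, and the median over all 16864 distinct anchors was 5. The core motif of CTCF, the protein that often holds loop ends, was searched on both strands and was not in any of the 18 promoter anchors of these genes. It was in 2 of their 70 distal anchors (2.86%, 0.787 to 9.83%) and in 1.32% of all anchors. The 2 anchors overlap each other at Ube2q1, one reached from Efna1 and the other from Efna4. A match to these letters is a description of the sequence and not a bound site.

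A few short loops held a large share of these tags. The loops spanned a median of 553 kb (412 to 683 kb), against 500.3 kb in the whole list. Only 7 of the 79 spanned under 100 kb, but these held 47.3% of the tags (40.2 to 54.5%), and loops of that length held 28.8% of the tags in the whole list. All 7 belonged to Efna1, Efna3, Efna4 or Ephb4. Efna3, for whose tag count the set was picked, had 53 of its 75 tags in loops under 100 kb. Nothing is therefore read from the contrast with the whole list. No loop under 100 kb had fewer than 6 tags in the first part or fewer than 2 in the second, whereas beyond that distance single tags were listed.

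**Figure D4:**
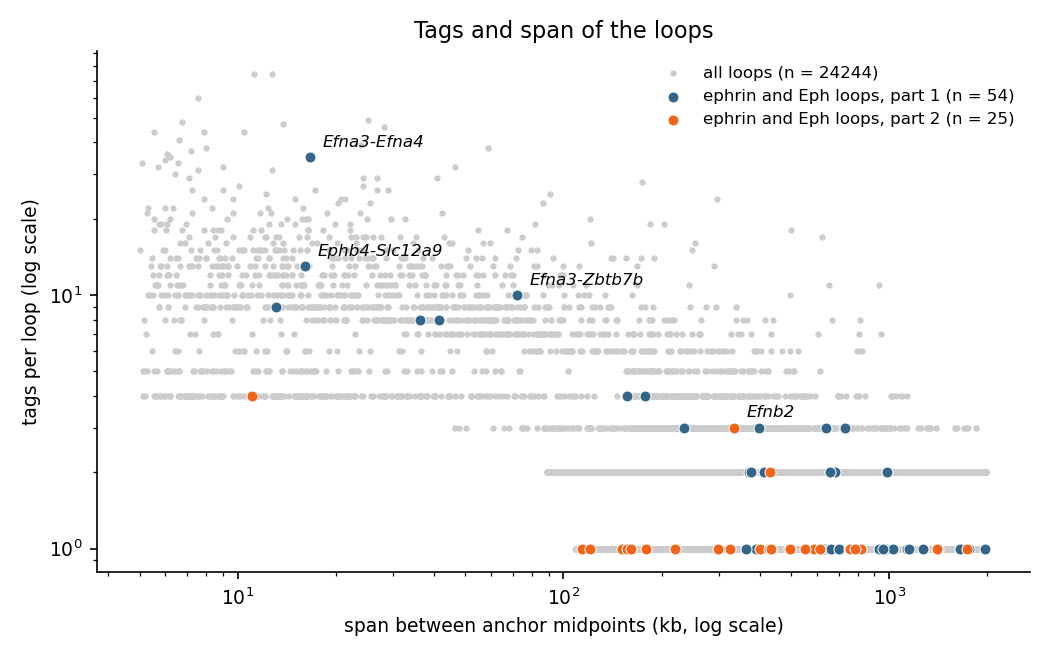
Tags per loop against the span between anchor midpoints in kb, both on log scales, for all 24244 loops (grey) and the 79 ephrin and Eph loops, colored by part of the list. The Efna3 to Efna4 loop (35 tags at 16.6 kb) lies near the top of its span range, and most colored points lie at 1 tag beyond 100 kb.

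The tags of these genes were divided unevenly between the parts of the list. Of the tags described here 83.2% (77.1 to 87.9%) lay in the first part. The share was 90.6% (85.0 to 94.2%) for Efna1, Efna3, Efna4 and Ephb4 and 36% (20.2 to 55.5%) for the other looped genes. These groups were formed after the tags were seen, so nothing is read from the contrast. In the whole list, loops under 100 kb had a median of 10 tags in the first part and 4 in the second. Part of the list's own imbalance goes with span, as 84.2% of all tags under 100 kb and 62.7% of those at longer range were in the first part. For the loops of at least 100 kb at these genes the share was 72.2% (62.5 to 80.1%). In the second part alone Efna3 had 3 tags, Efna1 5, Efna4 5, Ephb4 2 and Efnb2 8, so Efnb2 was then the highest, with intervals that overlap. Of the 79 loops 2 (2.53%, 0.697 to 8.77%) had a counterpart in the other part, against 7.34% of all loops. Those 2 were the Efna3 to Clk2 contact in each part.

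In the rest of the family, loops were found at 5 of 12 promoters, near the 45.8% of protein-coding genes, and with the 10 genes described the family came to 14 of 22 (63.6%, 43.0 to 80.3%). Efna5, which encodes ephrin-A5 and lies outside the 10 genes, had by far the most of these, with 10 loops and 34 tags (23.5 to 47.5). It was unlike its A-type relatives, because 9 of its 10 distal anchors were away from any TSS and 4 of its 10 loops had a counterpart in the other part of the list. These were 2 contacts, with 8 tags in the first part and 3 in the second at 338 and 337 kb, and with 5 and 4 tags at 221 and 219.9 kb. The nearer one lay in an intron of Efna5 itself. Efna2 had 5 tags, Efnb1 4, Epha5 1 and Ephb1 1. No loop was listed for Epha1, Epha3, Epha6, Epha7, Epha8, Epha10 or Ephb6.

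By class, 7 of 8 ligand genes and 7 of 14 receptor genes had a loop, beside 45.8% of protein-coding genes. The median was 22 tags for ligands and 0.5 for receptors, and nothing is read from this contrast. The neighboring A-type ligands share 2 loops and their surroundings, so the genes are not independent. Gene density moved with tags only loosely over the 22 genes (Spearman correlation 0.31 across genes, 0.13 over 21938 protein-coding genes). Efna1, Efna3, Efna4 and Ephb4 had 37 or 38 protein-coding genes within 500 kb, above the upper quartile of 27, but Efnb3 with 64 and Efna2 with 62 had 0 and 5 tags, and Efna5 with no such neighbor had 34.

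**Figure D5:**
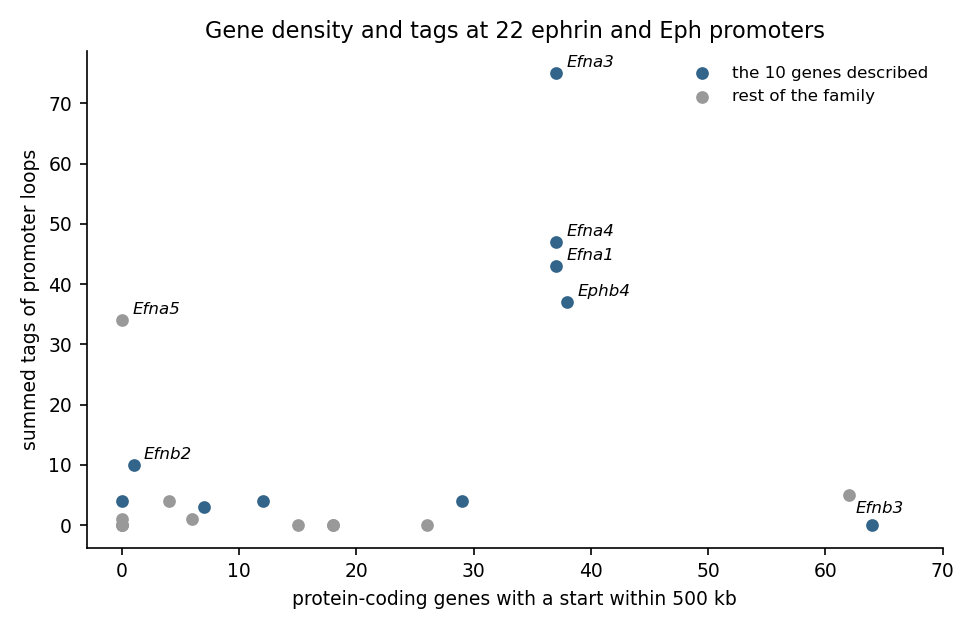
Summed promoter loop tags of the 22 ephrin and Eph genes against the number of protein-coding genes that start within 500 kb, with the 10 genes described in blue. Efna3, Efna4, Efna1 and Ephb4 lie at 37 or 38 neighbors, Efna5 has 34 tags with none, and Efnb3 has no tags with 64.

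Most genes that act with or below the Eph receptors had a loop, and few of them had many tags. Of 42 such genes 33 had a loop (78.6%, 64.1 to 88.3%), beside the 45.8% of protein-coding genes. With genes without a loop counted, their median was 2 tags, against 0 over all protein-coding genes. Those with at least 20 tags were Adam15 with 52, which shares the Efna4 loops, the kinase gene Abl1 with 30, the GTPase gene Rac1 with 24 and the adaptor gene Anks1 with 21. Adam10, whose protease cuts ephrins, had 5 tags, and Rhoa had 11. The list was chosen with earlier results of these data known, so nothing is read from its looped share or its median.

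Markers of other cells were checked because ephrin-B2 and EphB4 are also vessel proteins. Among 11 endothelial genes 3 had a loop, with 5 tags in all (Cdh5 3, Tek 1, Erg 1), and Pecam1, Kdr, Tie1 and Cldn5 were at 0. Of 8 macrophage and leukocyte genes 1 had a loop (Cd14, 2 tags), with Ptprc and Csf1r at 0, and of 7 skeletal muscle genes 1 did (Ckm, 2 tags), with Myod1 and Myog at 0. Of 6 fibroblast genes only Pdgfra had loops, with 41 tags, and Col1a1 and Dcn were at 0. Among 6 genes known from SyS, Sox2 had 39 tags, Tle1 4, Zic1 2 and Epcam 1, while Nnat and Penk were at 0. The defining endothelial markers were thus at 0 to 3 tags where Ephb4 had 37 and Efnb2 10, and the part of vessel cells in those tags was not tested.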

How the data were processed

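H3K27ac HiChIP was made from 2 hSS2 mouse SyS tumors. The authors used HiC-Pro to map reads to mm10 and hichipper to call loops, and merged both tumors. The deposited count, the paired-end tags that join the anchors, is whole and was not normalized, and the deposited FDR is a p-value that the authors' caller adjusted for multiple testing. The methods give an FDR threshold of 0.05, while the legend on the loop numbers gives 0.01 in Mango, the caller within hichipper. The largest listed value was 0.05, so the looser threshold applies to this list. How the tumors were merged is not given in the sources used here. The total was 41574 tags.

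Positions were converted to start at 1. TSSs were those of all GENCODE vM21 transcripts on GRCm38, with a promoter window of 2 kb. Span was the distance between anchor midpoints, and a counterpart was a loop of the other part with both anchors overlapping. Likeness between genes was the number of shared loops over the number found at either.

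The members and lists were chosen with earlier results of these data known. Text names the 10 genes, the rest of the family, the genes at the distal anchors of the top 3 loops of each, the gene most like each, and listed genes with at least 20 tags. Others were named after their values were seen. No test was made, since the list has no replicate values. Alternatives were promoter windows of 1 and 5 kb, protein-coding or RefSeq transcripts, FDR under 0.01 or 0.001, at least 2 or 4 tags, spans up to 1 Mb and each part alone. The assignment code was run on simulated data, where all 600 planted loops went to their gene. Every planted promoter anchor covered the TSS of its gene. The run therefore does not test anchors at the edge of the promoter window or promoters shared by several genes. Scripts ran in Python 3.11.15 with pysam 0.24.0, scipy 1.17.1, pandas 2.3.3, numpy 2.4.6 and matplotlib 3.10.9.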

Additional observations from a re-analysis of the deposited data

How the results depend on the processing

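The summed 184 tags, the 75 tags of Efna3, the 82.9% of distal anchors near another TSS and the median span of 553 kb stayed within their intervals with promoter windows of 1 or 5 kb, protein-coding genes only, RefSeq transcripts or spans up to 1 Mb. With an FDR under 0.01 there were 94 tags in all and 53 at Efna3, with a median span of 397 kb. An FDR under 0.001 left 65 and 41 tags. Loops of at least 2 tags gave 127 tags and 352.3 kb, and those of at least 4 gave 95 tags, 57 at Efna3, 100% and 36.3 kb. The first part alone had 153 tags. The second part alone had 31, with 3 at Efna3, 70.8% and 400.1 kb. Efna3 had 17 loops when loops were counted in place of tags, and anchors weighted by tags gave 90.8%. Stricter tag and FDR limits remove loops by construction, and the cause of the difference between the parts was not tested. No paired analysis was possible because the merged list gives no values for each tumor. With a single tag behind most loops, the order of genes below about 10 tags cannot be resolved. The intervals of Efna4, Efna1, Ephb4 and Efna5 also overlap, so the order of these genes was not resolved. Those of Efna3 and Efna4 overlap too, but both counts hold the same loop of 35 tags and are not independent. The overlap therefore does not show that Efna3 and Efna4 had equal counts, and their difference was not tested.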
